A study of Homo sapiens with 6 samples.

Results

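The mRNAs of 8 heat shock chaperones were followed through an RNA immunoprecipitation of LARP1 from free 40S ribosomal subunits of HCT116, a human colorectal carcinoma cell line. The members were the count rows whose Ensembl ID, before the version, was that of HSP90AA1 (ENSG00000080824), HSP90AB1 (ENSG00000096384), HSP90B1 (ENSG00000166598), HSPA5 (ENSG00000044574), HSPA8 (ENSG00000109971), HSPA9 (ENSG00000113013), HSPD1 (ENSG00000144381) or HSPE1 (ENSG00000115541), and each ID matched 1 row, so 8 of the 60554 listed gene IDs were described. The LARP1 IP was made with an anti-LARP1 antibody (n = 2), the IgG IP with control IgG from normal rabbit serum (n = 2), and Input was the RNA of the fraction without an antibody (n = 2). All 6 libraries came from the 40S fraction of HCT116 cells, with no treatment, time or genotype given in the labels, and from RNA that was not poly(A)-selected. The labels call the libraries of a group biological replicates, and whether the cultures were separate is not stated, so a p-value covers no more than the spread of these libraries, which may be technical. The sample descriptions call the fraction a 40S monosome fraction.

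Heat shock chaperones bind unfolded or client proteins and use ATP to help them fold. HSP90 and HSP70 proteins each have members in the cytosol, the endoplasmic reticulum and the mitochondrion, and the mitochondrial chaperonin is a chamber of HSPD1 closed by its lid HSPE1. Several of these proteins are made at high levels in unstressed cancer cells, and heat shock factor raises the transcription of part of the family. LARP1 is an RNA-binding protein best known for holding mRNAs whose 5′ end is a cytosine followed by an unbroken run of pyrimidines, the terminal oligopyrimidine (TOP) mRNAs, which encode ribosomal proteins and translation factors. The comparison therefore asks how much of the mRNA of another abundant group of housekeeping proteins comes with LARP1.

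Because LARP1 recognises the 5′ end, the annotated starts of the members are shown first. The sequences are those of RefSeq on GRCh38.p14, 15 bases before and 15 bases from each annotated start, 5′ to 3′ on the strand of the gene, with the transcribed part in capitals. All 8 symbols were found, with 12 starts in all.

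HSP90AA1, upstream start, chr14:102139735-102139764, minus strand: gcttgtttacggcccGACTGCGCAGGCGTG
HSP90AA1, downstream start, chr14:102087030-102087059, minus strand: cgggggtggcgcgtcAGTTGCTTCAGCGTC
HSP90AB1, upstream start, chr6:44246179-44246208, plus strand: ccccgcaggtactccACTCTCAGTCTGCAA
HSP90AB1, middle start, chr6:44247086-44247115, plus strand: gggcacgcagtagctCTCTCGAGTCACTCC
HSP90AB1, downstream start, chr6:44247928-44247957, plus strand: cgacgcatgtccggcAGTGACGAGTGTCGG
HSP90B1, chr12:103930395-103930424, plus strand: acctgcttgcggtgtAGTGGGCGGACCGCG
HSPA5, chr9:125241329-125241358, minus strand: ggcgacggtgaggtcGACGCCGGCCAAGAC
HSPA8, chr11:123062122-123062151, minus strand: cgggcggaaaccggtCTCATTGAACTCGCC
HSPA9, chr5:138575387-138575416, minus strand: tggttggaggtttccAGAAGCGCTGCCGCC
HSPD1, upstream start, chr2:197500260-197500289, minus strand: ggagggagggcggtcGCCCCGACGCGCACC
HSPD1, downstream start, chr2:197499826-197499855, minus strand: cgccctgcactctgtCCCTCACTCGCCGCC
HSPE1, chr2:197500364-197500393, plus strand: cgccagggccggactGCGAGTCTCTTTGCG

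A start with C followed by at least 4 pyrimidines was annotated for the middle start of HSP90AB1 and the downstream start of HSPD1, each with a pyrimidine run of 5 bases. HSPA8 also begins with C, but its run of pyrimidines ends after 3 bases. The other 9 starts begin with a purine. Such a pyrimidine start was found at 4.07% of all 35116 annotated starts in the table, at 55.95% of the 84 starts of ribosomal protein genes, and at 2 of the 12 starts of the members. An annotated start is not a measured one, and which start the mRNAs in these libraries used was not tested.

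The 2 chaperonin genes lie head to head on chromosome 2, with the upstream start of HSPD1 and the start of HSPE1 105 bases apart. The stretch between them, which lies upstream of both genes, is shown because the counts of this pair are compared below. It is given on the plus strand, in the direction of HSPE1, and 74.0% of its 104 bases are G or C.

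HSPD1 and HSPE1, between the starts, chr2:197500275-197500378, plus strand: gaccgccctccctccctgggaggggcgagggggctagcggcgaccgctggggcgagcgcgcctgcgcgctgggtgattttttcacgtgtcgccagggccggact

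The endoplasmic reticulum stress element, CCAAT and CCACG with any 9 bases between them, searched on both strands, is a site known for the response to unfolded protein in that compartment. Within 250 bases before and 50 bases after the annotated starts it was found 2 times for HSP90B1 and 1 time for HSPA5, the 2 members of the endoplasmic reticulum, against 0.0769% of all windows (27 of 35116). The matches are shown with the fixed letters as they stand in the strand of the gene.

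HSP90B1, far match, chr12:103930216-103930234, plus strand: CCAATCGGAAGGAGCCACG
HSP90B1, near match, chr12:103930321-103930339, plus strand: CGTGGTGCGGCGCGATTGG
HSPA5, chr9:125241391-125241409, minus strand: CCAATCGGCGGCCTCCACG

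A paired heat shock element, GAA and TTC in either order with any 2 bases between them, which reads the same on both strands, was found in 5 of the 12 windows, against 13.49% of all windows. These belonged to the downstream starts of HSP90AA1, HSP90AB1 and HSPD1 and to HSPA8 and HSPA9, and neighbouring matches overlap by 3 bases where they form a longer array. A match is a description of the letters, not a bound site.

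The LARP1 IP libraries held 5211809 and 4135463 counts, against 7356269 and 8069554 for the IgG IP and 6632952 and 6424655 for Input. The 2 most abundant genes took 21.3% to 26.6% of the LARP1 IP, 70.9% to 71.5% of the IgG IP and 87.9% to 88.7% of Input. Levels are given as CPM, counts scaled by TMM to a common library size, which sets each gene against the bulk of genes in its library. In bulk libraries, fewer cells with an mRNA and less of it per cell cannot be told apart. Transcript lengths were not used here, so levels are compared between libraries and not read as differences between genes. Cutoffs on CPM and shares of the members' counts are not corrected for length. Epithelial and other cell type markers were not analysed here, since the files list only Ensembl IDs and symbols were known for the 8 members alone.

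Together the 8 members took 0.396% and 0.308% of all counts in the LARP1 IP, against 0.420% and 0.252% for the IgG IP and 0.0855% and 0.0860% for Input. The 95% Wilson interval of LARP1 IP replicate 2 ran from 0.303% to 0.314%, which covers counting error only. The shares of the LARP1 IP and the IgG IP overlapped, and both lay above Input, with LARP1 IP over Input at 4.10 times and IgG IP over Input at 3.92 times (exact permutation test, two-sided p = 0.333 for both, the smallest that 2 libraries against 2 can give). Counted without the 2 most abundant genes the order differs. The members then took 0.540% and 0.392% of the LARP1 IP, against 1.44% and 0.884% of the IgG IP and 0.754% and 0.710% of Input, so that the LARP1 IP was lowest in both of its comparisons (0.400 times the IgG IP and 0.636 times Input, exact permutation test, two-sided p = 0.333 for both). HSPA8 alone gave 60.4% and 72.6% of the members' counts in the LARP1 IP, against 41.4% and 61.3% for the IgG IP and 59.6% and 64.6% for Input.

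**Figure D1:**
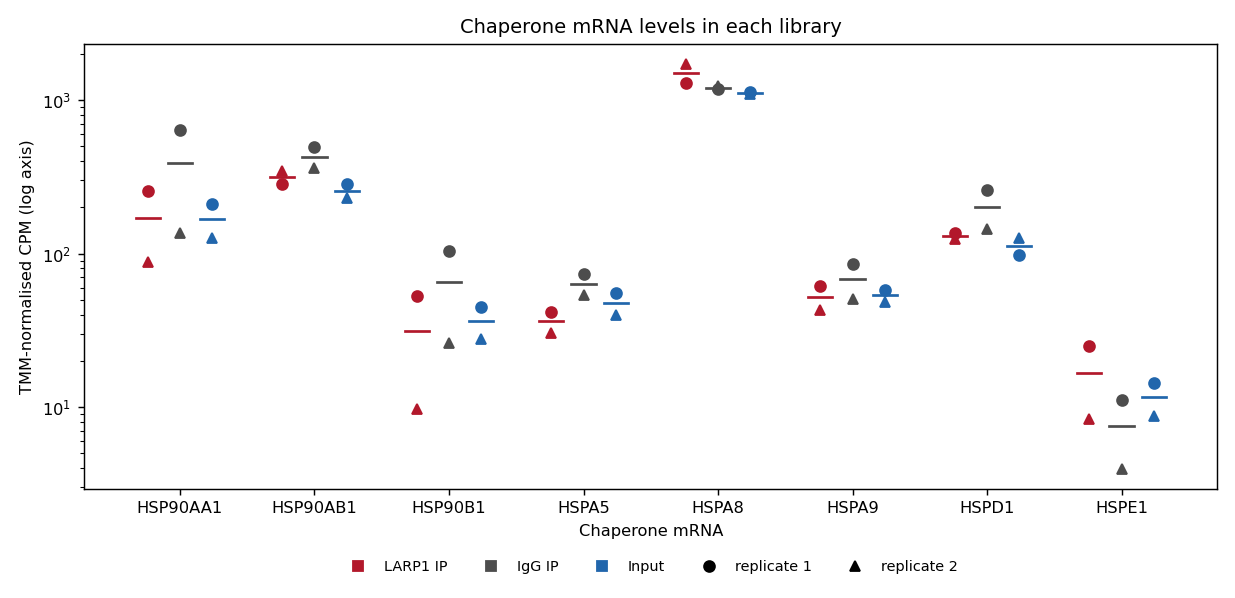
TMM-normalised CPM (log axis) of the 8 chaperone mRNAs in each of the 6 libraries, with points for libraries and a line for the mean of each group. HSPA8 is the only member with both LARP1 IP libraries above all control libraries, and HSP90AA1, HSP90B1 and HSPE1 show the widest gaps between the replicates of both IPs. Heights of different genes are not comparable, because transcript length was not taken into account.

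In the fit with group as the only term, none of the 8 chaperone mRNAs passed the test for a difference between the LARP1 IP and the IgG background, the quasi-likelihood test of edgeR with Benjamini-Hochberg adjusted p over all 10788 tested genes (threshold 0.05). All 8 were tested, and 0 were higher and 0 lower, with edgeR adjusted p from 0.224 to 0.643. An unadjusted p under 0.05 was reached by 0 members with edgeR, against 25.1% of tested genes, and by 0 with DESeq2, which after adjustment called 0 in either direction. The share of all tested genes called by DESeq2 is not given here in any comparison, so its counts of 0 have no background beside them. Over all tested genes, 8.54% were higher and 2.29% lower in this comparison, and 15.4% and 3.89% among the 2418 genes whose mean Input CPM was at least that of HSPE1, the member with the fewest Input CPM. A count of 0 of 8 is near that background and does not by itself set the chaperones apart. With the replicate number as a block, which pairs same-numbered libraries, HSPE1 passed as higher (1 of 8, against 14.1% of tested genes) and HSP90B1 as lower (1 of 8, against 8.42%).

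The members' median log2 fold change over the IgG IP was -0.54, against -0.06 over all tested genes, with 6 of 8 below 0. This shift depended on how the replicates were set against each other. Without IgG replicate 1, both LARP1 IP libraries were set against IgG replicate 2. The median was then 0.17, against 0.02 over all tested genes, and HSP90AA1, HSP90B1 and HSPA9 were above 0. With the replicate block the median was -0.52, against -0.07 over all tested genes. Between same-numbered libraries, all members but HSPA8 and HSPE1 had fewer CPM in the LARP1 IP than in the IgG IP in both pairs. Scaled by totals without the 2 most abundant genes in place of TMM, 6 of 8 passed as lower, all but HSP90B1 and HSPE1, against 38.2% of tested genes, where the median of all genes stood at -1.28 and that of the members at -1.76.

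The cytosolic members are the constitutive HSP70 protein HSPA8, the inducible HSP90 protein HSP90AA1 and its constitutive partner HSP90AB1. HSPA8 had 1305 and 1718 CPM in the LARP1 IP, against 1179.5 and 1233 CPM in the IgG IP and 1131 and 1106 CPM in Input. Both LARP1 IP libraries were above all 4 control libraries, yet the log2 fold change over the IgG IP was 0.33 ± 0.38 (SE, edgeR adjusted p = 0.643), with a 95% interval of 0.713-fold to 2.20-fold. Against Input it was 0.43 ± 0.38 (SE, edgeR adjusted p = 0.559), with an interval of 0.769-fold to 2.38-fold. The gap between the LARP1 IP and its controls was thus within the spread that the fit assigns to the gene.

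HSP90AB1 had 282.9 and 343.9 CPM in the LARP1 IP, against 492.7 and 363.2 CPM in the IgG IP and 285.7 and 228.8 CPM in Input. The LARP1 IP lay below both IgG libraries and overlapped Input. Its log2 fold change was -0.45 ± 0.39 against the IgG IP and 0.28 ± 0.39 against Input (SE, edgeR adjusted p = 0.510 and 0.728).

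HSP90AA1 had 255.0 and 88.7 CPM in the LARP1 IP, against 642.9 and 136.3 CPM in the IgG IP and 211.8 and 125.7 CPM in Input. In each group the replicate 1 library was the higher one, by 2.87 times in the LARP1 IP, 4.72 times in the IgG IP and 1.69 times in Input, and all 3 groups overlapped. With this spread the log2 fold change of -1.18 ± 0.65 over the IgG IP had a 95% interval of 0.168-fold to 1.16-fold (SE, edgeR adjusted p = 0.282). Without IgG replicate 2 it was -1.85 and passed as lower, and without LARP1 IP replicate 1 it was -2.14. Without IgG replicate 1 it was 0.34. Each of these fits leaves 1 library in a group. In both same-numbered pairs the LARP1 IP library was below the IgG IP library. With the replicate block the log2 fold change was -1.02 and did not pass (edgeR adjusted p = 0.0584).

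Both members of the endoplasmic reticulum, the HSP70 protein HSPA5 (BiP) and the HSP90 protein HSP90B1 (GRP94), had negative log2 fold changes against the IgG IP and Input, and neither passed in the fit without the replicate block. HSPA5 had 41.9 and 30.3 CPM in the LARP1 IP, against 73.4 and 53.9 CPM in the IgG IP and 55.2 and 39.6 CPM in Input. Its LARP1 IP libraries lay below both IgG libraries and overlapped Input, and its log2 fold change of -0.82 ± 0.40 over the IgG IP had the lowest adjusted p among the members in this comparison (SE, edgeR adjusted p = 0.224). Its upper 95% bound was 1.03-fold over the IgG IP and 1.39-fold over Input, the lowest upper bounds of the 8 members in both comparisons. With the replicate block its log2 fold change over the IgG IP was -0.82 and did not pass (edgeR adjusted p = 0.0851).

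HSP90B1 had 52.9 and 9.65 CPM in the LARP1 IP, against 104.5 and 26.2 CPM in the IgG IP and 44.8 and 27.6 CPM in Input. The LARP1 IP libraries differed from each other by 5.49 times, more than those of any other member, and they spanned both Input libraries. The log2 fold change was -1.05 ± 0.70 over the IgG IP and -0.20 ± 0.71 over Input (SE, edgeR adjusted p = 0.381 and 0.914). With the replicate block the value over the IgG IP was -1.14 and passed (edgeR adjusted p = 0.0288). Without the block it depended on single libraries: it was -2.76 without LARP1 IP replicate 1 (edgeR adjusted p = 0.0153), where it rested on the 52 counts of replicate 2, -0.30 without LARP1 IP replicate 2 (edgeR adjusted p = 0.842) and 0.27, with the sign turned, without IgG replicate 1 (edgeR adjusted p = 0.886).

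The mitochondrial members are HSPA9 (mortalin), the HSP70 protein that draws precursor proteins into the matrix, and the chaperonin pair. HSPA9 had 61.3 and 43.1 CPM in the LARP1 IP, against 85.9 and 50.3 CPM in the IgG IP and 58.2 and 48.6 CPM in Input. It overlapped both controls, and at -0.03 ± 0.41 (SE, edgeR adjusted p = 0.982) its log2 fold change over Input was near 0, with an interval of 0.527-fold to 1.82-fold. HSPD1 had 135.3 and 124.9 CPM in the LARP1 IP, against 258.6 and 145.0 CPM in the IgG IP and 97.4 and 126.9 CPM in Input. The LARP1 IP was below both IgG libraries and overlapped Input, with a log2 fold change of -0.63 ± 0.41 over the IgG IP and 0.21 ± 0.41 over Input (SE, edgeR adjusted p = 0.366 and 0.818). HSPD1 and HSP90AB1, which each have an annotated pyrimidine start among others, passed in neither comparison in the TMM-scaled fit of all 6 libraries. Which start these mRNAs used was not tested.

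HSPE1 had the highest log2 fold change of the 8 over both controls. It had 24.9 and 8.35 CPM in the LARP1 IP, against 11.2 and 3.96 CPM in the IgG IP and 14.4 and 8.67 CPM in Input. These levels rest on 238 and 45 counts in the LARP1 IP, against 121 and 40 for the IgG IP and 43 and 28 for Input, and at 28 counts the counting error alone is 18.9%. The groups overlapped in both comparisons, while the LARP1 IP library was above the same-numbered IgG IP library in both pairs. In the fit without the block, the log2 fold change was 1.15 ± 0.58 over the IgG IP and 0.55 ± 0.59 over Input (SE, edgeR adjusted p = 0.237 and 0.650), with upper 95% bounds of 5.24-fold and 3.53-fold. With the replicate block it was 1.13 over the IgG IP and passed (edgeR adjusted p = 0.0224). Without the block, HSPE1 passed over the IgG IP without IgG replicate 1 (2.09, edgeR adjusted p = 0.0354), where DESeq2 did not call it (adjusted p = 0.0644), and stood at 0.14 without LARP1 IP replicate 1. RefSeq lists 28 pseudogenes named after HSPE1, 22 after HSPD1 and 20 after HSPA8, with 1 to 6 for each of the other members, and how reads that match several copies were counted is not given in the sources used here, so the counts of these genes are uncertain to that extent.

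**Figure D2:**
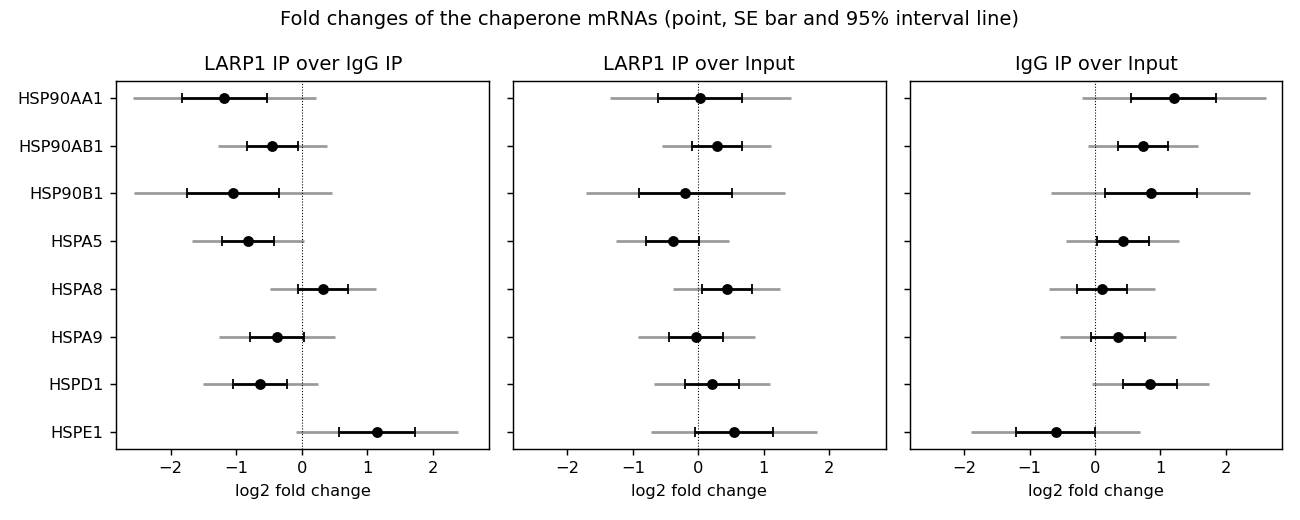
Log2 fold change of each chaperone mRNA in the 3 comparisons (point), with its SE (capped black bar) and 95% interval (grey line). Every interval includes 0, and against Input the 8 points lie between -0.39 and 0.55.

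Against Input, no chaperone mRNA passed the test, with or without the replicate block. By edgeR 0 of 8 were higher and 0 lower (adjusted p from 0.559 to 0.990), 0 had an unadjusted p under 0.05 by edgeR (21.0% of tested genes) or DESeq2, and DESeq2 called 0. Of all tested genes, 4.63% were higher and 1.52% lower, and 10.3% and 3.97% of those with at least the mean Input CPM of HSPE1. The count is again near the background. With the block 1083 of the 10788 tested genes (10%) were higher and 5.11% lower, and 0 members in either direction. The median log2 fold change of the members was 0.12, against 0.03 over all tested genes, with a range from -0.39 for HSPA5 to 0.55 for HSPE1. Without LARP1 IP replicate 1 the members' median was -0.38, against 0.07 over all tested genes, with HSP90B1 at -1.90, HSP90AA1 at -0.92 and HSPE1 at -0.46. In the fit of all 6 libraries, all 3 cytosolic members were above 0 and both members of the endoplasmic reticulum below it, with 95% intervals that all include 0. This split did not hold in every setting. HSP90AA1 stood at 0.03 in that fit, at -0.01 with DESeq2 and at -0.16 with the replicate block. HSP90B1 stood at 0.57 without LARP1 IP replicate 2. With total counts in place of TMM, 7 of the 8 members passed as higher than Input, all but HSP90B1, against 60.7% of tested genes, and that scaling moved the median of all genes to 1.75 and the members' median to 1.91. With total counts the log2 fold change of HSPA5 was 1.38 and that of HSPA9 was 1.73, both under that median of all genes.

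The upper 95% bounds of the 8 members ran from 1.03-fold to 5.24-fold over the IgG IP and from 1.39-fold to 3.53-fold over Input in the fit of all 6 libraries. They are not bounds on what a single library can move: HSP90AA1 had an upper bound of 0.21 on the log2 scale over the IgG IP, and without IgG replicate 1 its estimate was 0.34.

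**Figure D3:**
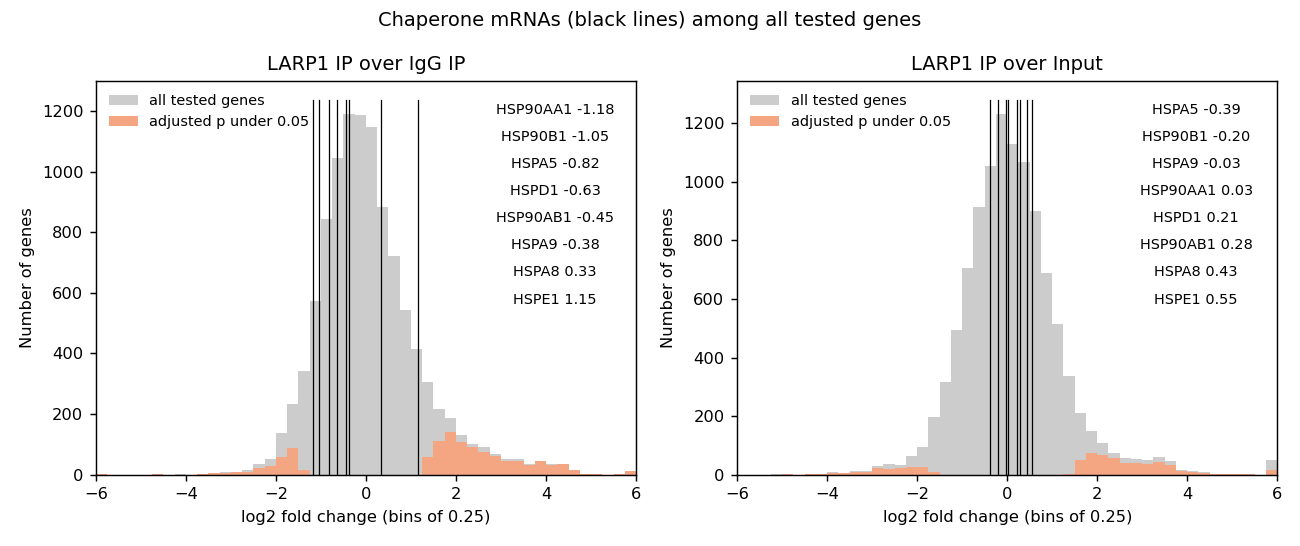
Number of tested genes by log2 fold change of the LARP1 IP over the IgG IP (left) and over Input (right), in bins of 0.25, with called genes in orange and the 8 chaperone mRNAs as black lines listed in order. Values beyond 6 in either direction are counted in the outermost bins. The chaperones lie between -1.18 and 1.15 over the IgG IP and between -0.39 and 0.55 over Input.

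Among all tested genes, the members stood at the 8.94 (HSP90AA1) to 85.8 percentile (HSPE1) of the log2 fold change over the IgG IP and at the 31.3 (HSPA5) to 70.3 percentile (HSPE1) over Input. LARP1 IP and IgG IP libraries did not overlap for 4 members: HSPA8 was higher (1 of 8, against 27.3% of tested genes), and HSP90AB1, HSPA5 and HSPD1 were lower (3 of 8, against 25.9%). Against Input only HSPA8 did not overlap, as the higher one (1 of 8, against 28.8% of tested genes higher and 22.8% lower). Over the IgG IP, the 4 of 8 that did not overlap are near the background of both directions together. Against Input 7 of 8 overlapped, so the members were set apart less often than tested genes. Whether this goes beyond so few members was not tested.

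The control serum pull-down was compared with Input as the background of the method, and no member passed. The IgG IP had a positive log2 fold change over Input for 7 of 8 members, with a median of 0.58 against 0.01 over all tested genes. Leaving out IgG replicate 1 sets IgG replicate 2 against both Input libraries. The members' median was then 0.03, and HSP90AA1 at -0.31, HSP90B1 at -0.46 and HSPA9 at -0.08 joined HSPE1 below 0, which left 4 of 8 above it. With the replicate block of all libraries the median was 0.48, against 0.0008 over all tested genes. Between same-numbered libraries, the IgG IP had more CPM than Input for all but HSPE1 in replicate 1. In replicate 2 it had more for all but HSP90B1 and HSPE1. By edgeR 0 of 8 passed in either direction, against 0.0% of all tested genes (6.72% of which had an unadjusted p under 0.05, and 0 of the members). DESeq2 also called 0 members, but it gave HSPE1 no adjusted p and so could not call it. With the replicate block 0.362% of tested genes were higher and 0.324% lower, and 0 members. HSP90AA1 had 1.21 ± 0.65, HSPD1 0.85 ± 0.41 and HSP90AB1 0.73 ± 0.39 (SE, edgeR adjusted p = 0.770, 0.745 and 0.770). HSPE1 was the one member below 0, at -0.60 ± 0.60 (SE, edgeR adjusted p = 0.892). IgG IP libraries lay above both Input libraries for HSP90AB1, HSPA8 and HSPD1 (3 of 8, against 19.2% of tested genes) and below them for none (against 19.3%). With total counts 7 of 8 passed as higher in the IgG IP, all but HSPE1, against 53.8% of tested genes, with a members' median of 2.12 where all genes had 1.51. The IgG IP libraries enter both this comparison and that of the LARP1 IP with the IgG IP. The opposite signs in the 2 comparisons, seen for all members but HSPA8, therefore share the same libraries.

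Ratios of raw counts between 2 members of the same library do not depend on how libraries are scaled, and 4 were taken. The ratio of HSPA8 to HSPA5, cytosolic to endoplasmic HSP70, was 31.2 and 56.8 in the LARP1 IP, against 16.1 and 22.9 for the IgG IP and 20.5 and 27.9 for Input. It was higher in both LARP1 IP libraries than in all 4 control libraries, by 0.98 on the log2 scale (exact permutation test of 2 libraries against 4, two-sided p = 0.133, the smallest that 15 splits can give, and 0.533 adjusted over the 4 ratios). Leaving out single libraries gave 0.54 to 1.41, the lowest without LARP1 IP replicate 2. The ratio of HSPD1 to HSPE1, chamber to lid, was 5.43 and 14.96 in the LARP1 IP, against 23.2 and 36.6 for the IgG IP and 6.77 and 14.6 for Input. The LARP1 IP lay below the IgG IP by 1.69 on the log2 scale without overlap and at the level of Input, and against the 4 control libraries it was not distinguishable (-0.92, exact permutation p = 0.400, adjusted 0.800). That difference was -0.19 without LARP1 IP replicate 1 and -1.65 without LARP1 IP replicate 2. The LARP1 IP and Input libraries overlapped in this ratio, and both IgG IP libraries were above all of them.

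The ratio of HSP90AB1 to HSP90AA1 was 1.11 and 3.88 in the LARP1 IP, against 0.766 and 2.67 for the IgG IP and 1.35 and 1.82 for Input. It was higher in replicate 2 of each group, and the groups overlapped (0.47 on the log2 scale, exact permutation p = 0.667, adjusted 0.889). Between same-numbered libraries it was higher in the LARP1 IP than in the IgG IP in both pairs. Against Input it was lower in replicate 1 and higher in replicate 2. The ratio of HSPA9 to HSPD1, the 2 mitochondrial ATPases, was 0.453 and 0.345 in the LARP1 IP, against 0.332 and 0.347 for the IgG IP and 0.598 and 0.383 for Input, and the LARP1 IP overlapped both controls (-0.03 on the log2 scale, exact permutation p = 1, adjusted 1). Of the 4 ratios, only that of HSPA8 to HSPA5 separated the LARP1 IP from every control library.

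**Figure D4:**
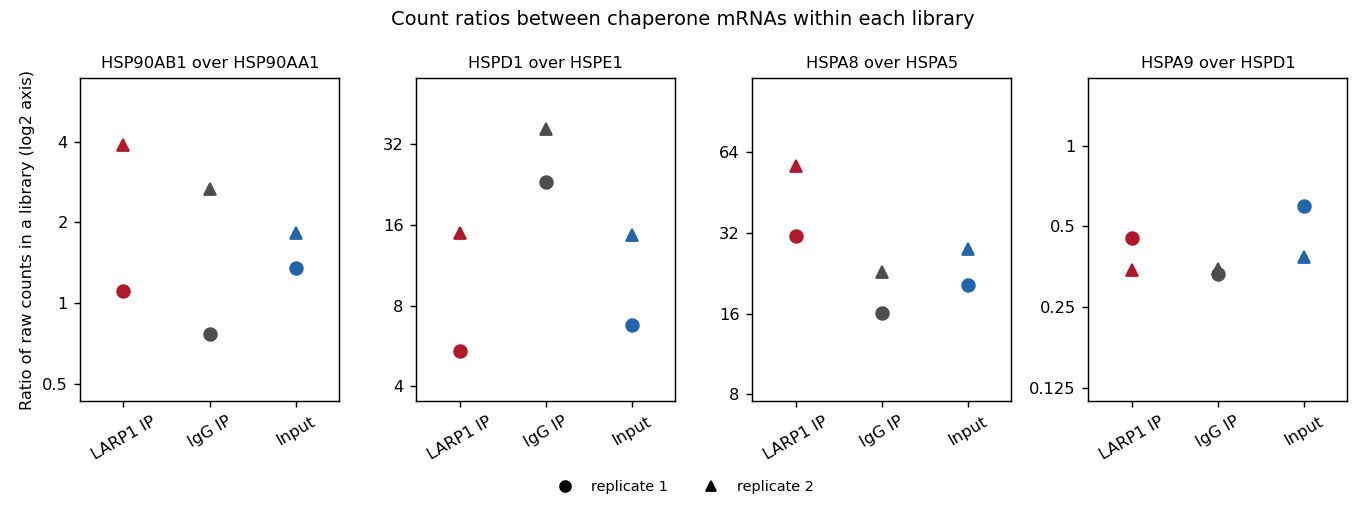
Ratio of raw counts of 2 chaperone mRNAs within each library (log2 axis, each panel spanning the same number of doublings), for the LARP1 IP, the IgG IP and Input, with the 2 replicates as separate symbols. HSPA8 over HSPA5 is 31.2 and 56.8 in the LARP1 IP and at most 27.9 in the control libraries, and HSPD1 over HSPE1 is 23.2 and 36.6 in the IgG IP and at most 14.96 in the other libraries.

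The members varied between replicates in different degrees. The replicate 1 library was higher for 6 of 8 members in the LARP1 IP, 7 of 8 in the IgG IP and 7 of 8 in Input, against 44.4%, 49.0% and 48.7% of all tested genes. HSP90AA1, HSP90B1 and HSPE1 had the widest gaps in both IPs, from 2.82 to 5.49 times, while HSPA8 differed by 0.759, 0.957 and 1.02 times between replicate 1 and replicate 2 in the LARP1 IP, the IgG IP and Input. What sets the replicates apart was not tested.

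The median profile of the members was a modest one, and not all of them followed it. Over the 6 libraries, the median of their centred log2(CPM + 1) values was highest in IgG replicate 1, at 0.62, and lowest in LARP1 IP replicate 2, at -0.33. HSPA9 followed it most closely, at a Euclidean distance of 0.104, and HSP90B1 least, at 1.82. Among 3051 other genes that averaged 10 CPM or more, the 2 nearest to it were ENSG00000143294.14 (distance 0.206) and ENSG00000205531.12 (0.216), for which no symbol was available here. Ranked among those genes by the same distance, HSP90B1 would stand at 2219, HSPE1 at 2072, HSP90AA1 at 1792 and HSPA8 at 996. The other members would stand at 1 to 304. Each member helped to set the median and the other genes did not, so these ranks are not a like comparison. ENSG00000143294.14 had 17.8 and 15.2 CPM in the LARP1 IP, against 30.7 and 16.9 CPM in the IgG IP and 21.1 and 16.4 CPM in Input.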

How the data were processed

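The authors deposited raw read counts per Ensembl gene ID, 1 file per library, with no normalization. The submitters' processing notes name featureCounts (Subread 1.20.6), TopHat2 2.1.1 with Bowtie2, and CASAVA 1.8, on GRCh38. Annotation release, strand setting and treatment of multiply mapped reads were not stated there. From these counts, edgeR 4.0.16 (R 4.3.3) was run as follows: filterByExpr (minimum count 10) left 10788 genes, all 8 members among them, libraries were scaled by TMM, and all 6 entered a quasi-likelihood fit with group as the only term (3 residual degrees of freedom). The SE is the size of the log2 fold change divided by the square root of F, and intervals use the fit's t quantile at 95%. DESeq2 1.42.0, other scalings, filters, a replicate block and fits without each library were alternatives. Exact permutation tests used scipy 1.17.1.

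The 8 members are all named, and the members, gene lists, ratios and tests were chosen with earlier results of these data known. The most alike genes were those with the smallest Euclidean distance to the members' median centred log2(CPM + 1). Lists of other chaperone genes and of cell type markers, given by symbol in the plan, were not analysed, because 0 rows of the RefSeq table used here held an Ensembl ID. Promoter sequences came from RefSeq (GRCh38.p14). Libraries differed by more than sampling noise within each group (chi-square per degree of freedom 4.73 to 29.7), so each counted as 1 replicate. Groups share replicate numbers in the labels, with no batch named, and deviations of libraries with one number correlated at 0.519 (LARP1 IP and IgG IP), 0.134 (LARP1 IP and Input) and 0.271 (IgG IP and Input), all over 0.1. The numbers were therefore read as pairs, from these values and not from the labels. The main fit with its SEs and intervals, the overlaps of groups and the permutation tests leave these pairs out. The fit with the number as a block is given beside them where it changes a call or the reading of a value.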

Additional observations from a re-analysis of the deposited data

How the results depend on the processing

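Every comparison gave 0 members higher and 0 lower, and only the settings named here moved a count. Against the IgG IP, scaling by totals that leave out the 2 most abundant genes gave 6 lower (median of all genes -1.28), HSPA8 at -0.90 among them. Against Input, total counts gave 7 higher, with HSPA5 turning to 1.38 and HSPA9 to 1.73, and for the IgG IP over Input also 7 higher. Leaving out single libraries, by edgeR or DESeq2, moved calls only against the IgG IP, for HSP90AA1 and HSP90B1 (lower) and HSPE1 (higher). Each fit with such a call left 1 library in a group. The share of all tested genes called in those fits is not given here, so these calls have no background beside them. Of 168 member values in alternative settings per comparison, 7 against the IgG IP, 31 against Input and 7 for the IgG IP over Input differed in sign, all but 3 of them with no call. Without the 2 most abundant genes the ratios of summed shares were 0.400 (LARP1 IP over IgG IP), 0.636 (LARP1 IP over Input) and 1.59 (IgG IP over Input). On the log2 scale, leaving out libraries put the LARP1 IP minus the controls at -0.43 to 1.37 for HSP90AB1 over HSP90AA1, -1.65 to -0.19 for HSPD1 over HSPE1, 0.54 to 1.41 for HSPA8 over HSPA5 and -0.23 to 0.17 for HSPA9 over HSPD1.

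With the replicate block, 1 member was higher than the IgG IP (HSPE1, 1.13, edgeR adjusted p = 0.0224) and 1 lower (HSP90B1, -1.14, edgeR adjusted p = 0.0288), and the block changed no other call of a member. With the block the members' median was -0.52 over the IgG IP and 0.48 for the IgG IP over Input. Without the block and without IgG replicate 1 the members' median was 0.17 over the IgG IP and 0.03 for the IgG IP over Input. Without LARP1 IP replicate 1 it was -0.38 over Input. Counting error was largest in Input, with 752862 and 778680 counts once the 2 most abundant genes are set aside, while the members' replicates differed most in the IPs. Apart from construction (fewer libraries, another scaling), the cause was not tested.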
